A study of Mus musculus with 6 samples.

Results

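Actins, tropomyosins and the proteins that crosslink or anchor actin filaments were followed in hematopoietic stem and progenitor cells with a conditional deletion of *Myh9*, the gene of the non-muscle myosin heavy chain IIA. The 10 genes were chosen by name from the 54532 genes of the deposited table: the cytoplasmic actins *Actb* and *Actg1*, the tropomyosins *Tpm1*, *Tpm3* and *Tpm4*, the crosslinkers *Flna*, *Actn1* and *Actn4*, and the adhesion linkers *Vcl* and *Tln1*. All 10 are protein-coding genes, were found in the table and were tested, since each averaged 1 FPKM or more. RNA was sequenced from LSK cells (lineage-negative, Sca1- and c-Kit-positive bone marrow cells), with 3 libraries of Myh9fl/fl;Mx1-cre mice, called *Myh9*-deficient or cKO, and 3 libraries of littermates labelled Myh9fl/fl;no cre, called control or CTRL. All mice were of the C57BL/6 strain, and both groups carried the floxed alleles by these labels and received poly I:C at 5 mg/kg, in 2 doses by the sample labels and in 3 by the study's methods. Cells were sorted 4 days after the first dose, 100000 for each library. The Mx1 promoter drives the recombinase in any cell that answers to interferon, so deletion need not be limited to hematopoietic cells. Mice were 5 to 6 weeks old when injected, by the methods, and how many mice gave each set of cells is not stated. The p-values below therefore measure the spread between the 3 sets of a group.

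Actin monomers assemble into filaments, on which the myosin that *Myh9* encodes pulls. Tropomyosins lie along the filament and govern which myosins and severing proteins reach it, alpha-actinins and filamin join filaments into bundles and networks, and talin and vinculin link them to integrins at the cell membrane. In blood progenitors this cortex shapes the cell, carries contraction in division and holds the cell to its niche. *Actb* is also widely used as a reference gene in real-time PCR, and the study normalised its real-time PCR to beta-actin.

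The 2 cytoplasmic actins are alike over most of their coding bases, which matters for any count of their reads. Their coding sequences are both 1128 bases long and share 1000 of them (88.7%), with a longest identical run of 62 bases. The first 30 coding bases are shown because the 2 proteins differ near this end. Capitals mark the 8 bases that differ, and the sequences are from GENCODE M21 transcripts (GRCm38), 5′ to 3′.
Actb: atggaTgaCgaTatcgcTgcGctGgtcGtC
Actg1: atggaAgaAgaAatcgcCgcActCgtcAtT

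A shared regulator of actin genes is the serum response factor *Srf*, which binds the CArG box. The 30-base windows that hold a box are shown because *Srf* and its cofactor were measured in the same libraries, and capitals mark the box. RefSeq promoters (GRCm38.p6, 250 bases before to 50 after a start site) matched 9 of the 10 genes, *Actb* being the gene with no entry. The CArG box was searched by name on both strands, and it was found in 2 of the 9. The box of *Actg1* begins 90 bases upstream of the start site (chr11:120348566-120348595, minus strand), and that of *Vcl* 227 bases upstream (chr14:20929161-20929190, plus strand). Of all 32851 promoters, 535 (1.63%) hold such a box, and a match describes letters only.
Actg1: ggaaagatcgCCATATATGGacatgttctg
Vcl: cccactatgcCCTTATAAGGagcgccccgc

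The libraries held 17571544 to 19894562 reads on genes. Values are FPKM, fragments scaled by gene length and by library size. The length is that of the gene model, which for *Tpm1* is 6485 bases against 1898 in its GENCODE transcript, and for *Tpm4* 2203 against 2128. Levels and shares set side by side between genes depend on these lengths. *Myh9* itself was at 23.0, 22.6 and 22.0 FPKM in CTRL and at 18.4, 19.96 and 17.7 FPKM in cKO libraries, with no overlap, and it fell by 0.26 on the log2 scale (SE 0.049, limma adjusted p = 0.00642). The floxed part of *Myh9* is exon 1, and this value counts reads over the whole gene. Removal of GC and length trends left *Myh9* at -0.12 (adjusted p = 0.0468), and scaling to 15 reference genes left it at -0.21 (adjusted p = 0.196). The LSK markers *Kit*, *Ly6a*, *Cd34*, *Flt3* and *Slamf1* were all expressed, and their summed level was 202 to 206 FPKM in CTRL and 204 to 213 FPKM in cKO libraries. Of these 5, 1 rose and 1 fell, beside 19.9% and 20.6% of all genes. *Flt3* rose from 19.8 to 30.1 FPKM (limma, adjusted p = 0.000147) and *Kit* fell from 23.9 to 21.5 FPKM (adjusted p = 0.0105). Markers of other blood cells also moved between the groups. All 5 platelet and megakaryocyte markers tested of 11 listed rose (summed level 68.2 to 71.3 against 140 to 144 FPKM), as did all 8 erythroid markers tested of 10 listed (88.6 to 92.1 against 169 to 178 FPKM). Of 10 neutrophil markers, 7 fell and 1 rose (6655 to 6721 against 3521 to 3586 FPKM), and of 8 macrophage and monocyte markers tested of 9 listed, 6 fell and 2 rose (316 to 322 against 178 to 184 FPKM). Most of the neutrophil sum was *Elane* (3096 to 1346 FPKM) and *Mpo* (3331 to 1953 FPKM), and the marker that rose was *Retnlg* (8.94 to 30.1 FPKM). Of 2 lymphocyte markers tested of 9 listed, *Cd79a* rose and *Nkg7* fell. *Nkg7* made up nearly all of their summed level (351 to 361 against 281 to 287 FPKM), while *Cd3d* went from 0.141 to 1.45, *Cd4* from 0.311 to 0.826 and *Klrb1c* from 0.354 to 1.01 FPKM, below the filter and not tested. The 1 stromal and endothelial marker tested of 10 listed, *Pdgfrb*, was not called and overlapped (6.01 ± 0.606 in CTRL, 6.24 ± 0.303 FPKM in cKO, SD, n = 3 each). The summed level of the 10 listed markers was 7.47 to 8.53 FPKM in CTRL and 8.57 to 9.01 FPKM in cKO libraries. *Gp1bb* had no read in any library, and *Cd3e* had none in CTRL libraries. In bulk samples, fewer cells of a type and less RNA per cell cannot be told apart, and the part of these markers in the results on actin genes was not tested.

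*Actb*, the gene of beta-actin (chr5:142903115-142906754, minus strand, mm10), was the most abundant of the 10, with a mean that ranked 99 among the genes tested. It was at 707, 702 and 670 FPKM in CTRL and at 719, 651 and 700 FPKM in cKO libraries, so that the groups overlapped. The mean was 693 ± 20.1 FPKM (SD, n = 3) in CTRL and 690 ± 35.0 FPKM (SD, n = 3) in cKO LSKs. The log2 fold change was -0.0078, with a 95% interval from -0.11 to 0.093 (limma, adjusted p = 0.900). Quantile normalization gave *Actb* a log2 fold change of -0.12 instead, with an adjusted p of 0.0544.

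*Actg1*, the gene of gamma-actin (chr11:120345690-120348542, minus strand), fell. Its values were 362, 370 and 366 FPKM in CTRL and 335, 339 and 333 FPKM in cKO libraries, every cKO library lying below every CTRL library. The mean fell by 8.26%, from 366 ± 3.92 to 335 ± 3.10 FPKM (SD, n = 3 each), with a log2 fold change of -0.12 (SE 0.021, limma adjusted p = 0.00446). Near copies of *Actg1* exist in the genome: 946 of 1853 windows of 100 bases in its transcript (51.1%) also occur in other genes, most in the processed pseudogene *Gm12715* on chromosome 4. Reads given to *Gm12715* came to 1.35% to 1.79% of those given to *Actg1*, and with these reads added the adjusted p was 0.00449. For *Actb* the shared windows were 20 of 1821 (1.10%).

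*Actb* made up 66.2%, 65.5% and 64.7% of the summed actin level (*Actb* + *Actg1*) in CTRL and 68.2%, 65.8% and 67.8% in cKO libraries. The share differed by 1.80 percentage points and its groups overlapped (exact permutation test, two-sided, p = 0.2, 0.24 after Benjamini-Hochberg adjustment over 6 shares). The smallest p that 3 libraries against 3 can give is 0.1. The muscle actins were nearly absent. *Actc1*, *Actg2* and the actin-like *Actbl2* had no read in any library, and *Acta2*, the smooth muscle actin, had at most 8 reads in a library.

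**Figure D1:**
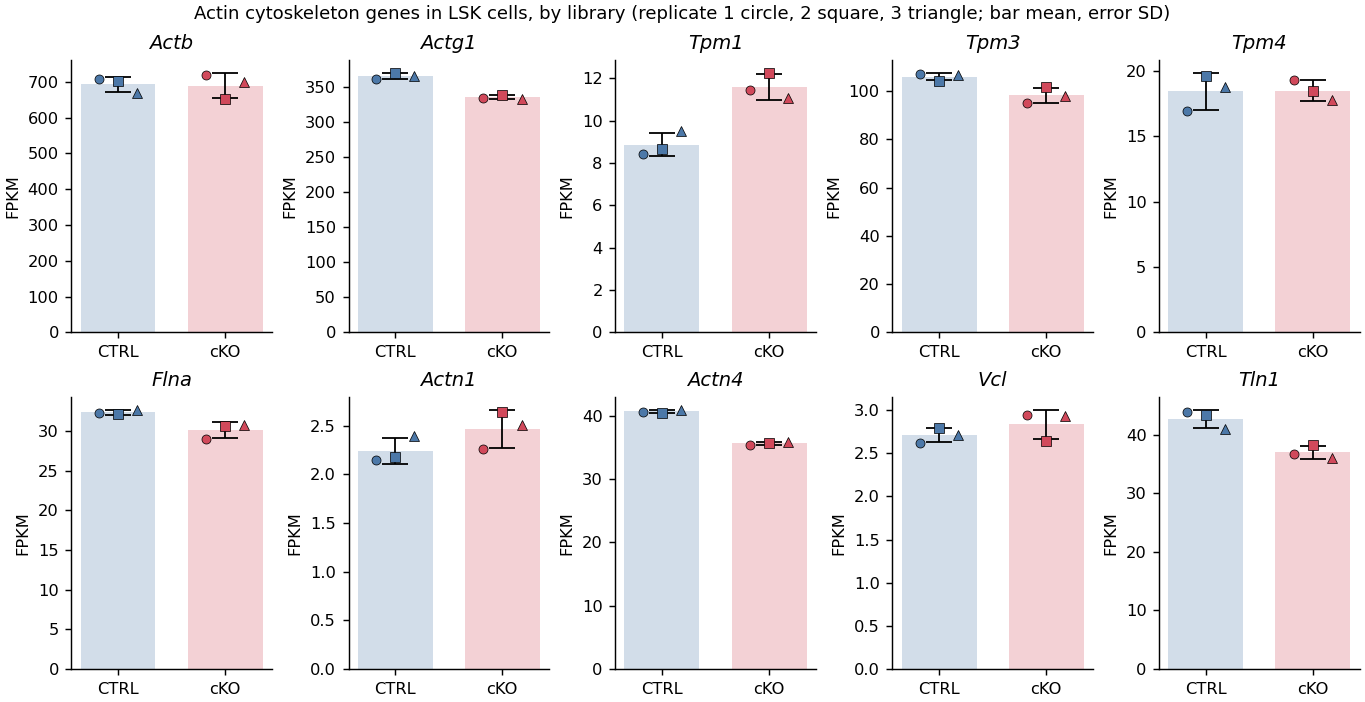
FPKM of each of the 10 genes (vertical axes, from 0) in CTRL and cKO libraries, with symbols for the 3 libraries of a group, bars for the mean and error bars for the SD. *Actg1*, *Actn4*, *Tln1*, *Tpm3* and *Flna* have all cKO libraries below all CTRL libraries, *Tpm1* has them above, and *Actb*, *Tpm4*, *Actn1* and *Vcl* overlap.

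Because beta-actin served as the reference in real-time PCR, *Actb* was set beside 13 other genes used for this purpose. Of the 14 genes with *Actb*, 3 rose, 4 fell and 7 were not called, where 19.9% of all genes rose and 20.6% fell. This count was not tested against these shares. *Tfrc*, the transferrin receptor, rose by 0.53 on the log2 scale, *Hprt* of purine salvage by 0.20 and the glycolytic *Pgk1* by 0.11. The RNA polymerase subunit *Polr2a* fell by 0.25, the elongation factor *Eef1a1* by 0.18, *Sdha* of the respiratory chain by 0.12 and the MHC subunit *B2m* by 0.072. The calls of *Sdha* and *B2m* were each lost in 9 of 20 alternatives, that of *Pgk1* in 6, that of *Eef1a1* in 3 (-0.022 with quantile normalization, adjusted p = 0.505) and those of *Hprt* (0.075 with GC and length trends removed, adjusted p = 0.0775) and *Polr2a* in 1 each. *Tfrc* is also on the list of erythroid markers, which rose in the same libraries, and the part of these cells in its change was not tested.

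The ones not called were *Actb*, *Gapdh*, *Ppia*, *Tbp*, *Rplp0*, *Ywhaz* and *Gusb*. *Gapdh*, the glycolytic enzyme most often paired with *Actb* in such assays, was unlike the rest in its spread. It was at 32.3, 59.6 and 41.4 FPKM in CTRL and at 28.3, 5.99 and 69.5 FPKM in cKO libraries, so that single libraries of a group differed by more than the group means. Against *Actb* within each library, 4 of the other genes (*Hprt*, *Eef1a1*, *Polr2a* and *Tfrc*) had log2 ratios that did not overlap between groups. The share of all genes for which this holds was not computed. The genes whose pattern over the 6 libraries was nearest to that of *Actb*, among 623 genes that averaged 100 FPKM or more, were *Rpl3*, *Rack1*, *Ifitm3*, *Eif3h* and *mt-Cytb*. Their root mean square differences from *Actb*, after centring log2(FPKM + 1) per gene, were 0.024, 0.035, 0.035, 0.037 and 0.039.

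**Figure D2:**
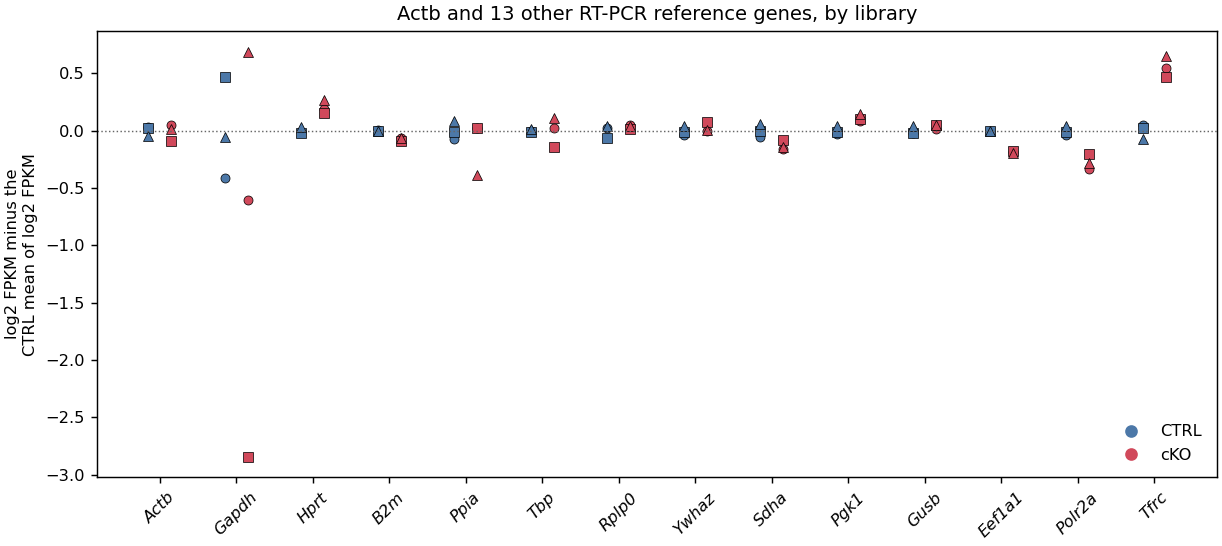
log2 FPKM of *Actb* and 13 other reference genes in each library, minus the mean of the CTRL libraries (vertical axis); blue points are CTRL and red points cKO libraries. *Actb* stays near 0 in all 6 libraries, *Gapdh* spreads from 5.99 to 69.5 FPKM within the cKO group, and *Tfrc*, *Hprt* and *Pgk1* lie above 0 while *Polr2a* and *Eef1a1* lie below.

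Among the tropomyosins, the low-abundance *Tpm1* rose while the main form, *Tpm3*, fell slightly. *Tpm1* (chr9:67022590-67049406, minus strand) was at 8.43, 8.68 and 9.50 FPKM in CTRL and at 11.4, 12.2 and 11.05 FPKM in cKO libraries, all 3 above the highest CTRL library. The mean rose by 30.6%, from 8.87 ± 0.558 to 11.6 ± 0.611 FPKM (SD, n = 3 each), on 992 to 1448 reads in a library, with a log2 fold change of 0.35 and a 95% interval from 0.21 to 0.49 (limma, adjusted p = 0.00371). This was the largest log2 fold change of the 10 in either direction. *Tpm1* was called under all 20 alternatives tried, with log2 fold changes from 0.31 to 0.42. No 100-base window of its transcript is shared with another gene.

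*Tpm3* (chr3:90072649-90100902, plus strand) was at 107, 104 and 107 FPKM in CTRL and at 95.3, 102 and 98.0 FPKM in cKO libraries, without overlap. The mean fell by 7.34%, from 106 ± 1.45 to 98.3 ± 3.14 FPKM (SD, n = 3 each), with a log2 fold change of -0.11 (SE 0.030, limma adjusted p = 0.0281). This call was the least stable of the 5: it was lost in 11 of 20 alternatives, among them leaving out any single library other than cKO replicate 2 (adjusted p from 0.0522 to 0.0878) and removal of trends with GC content and with length (adjusted p = 0.252). *Tpm3* also has a near copy. Of its 2134 windows, 976 (45.7%) occur in *Tpm3-rs7* on chromosome 14, which was at 32.9 ± 0.716 FPKM in CTRL and 29.2 ± 1.35 FPKM in cKO LSKs (SD, n = 3 each) and fell by 0.17 on the log2 scale (limma, adjusted p = 0.0173). Reads of *Tpm3-rs7* came to 9.60% to 11.1% of those of *Tpm3*, and added to *Tpm3* they gave a log2 fold change of -0.12 (adjusted p = 0.0167). How reads that fit both genes were counted is not given in the sources used here, so both values are uncertain.

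*Tpm4* (chr8:72134975-72153142, plus strand) was at 16.9, 19.7 and 18.8 FPKM in CTRL and at 19.3, 18.4 and 17.8 FPKM in cKO libraries. The groups overlapped, with means of 18.5 ± 1.40 and 18.5 ± 0.794 FPKM (SD, n = 3 each) and a log2 fold change of 0.0061 with a 95% interval from -0.14 to 0.15 (limma, adjusted p = 0.946). *Tpm2*, the other tropomyosin gene and not among the 10, was near the detection filter at 1.45 ± 0.222 FPKM in CTRL and rose to 2.20 ± 0.434 FPKM (SD, n = 3 each), by 0.38 on the log2 scale (limma, adjusted p = 0.0419), a call lost in 8 of 19 alternatives.

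Within each library the tropomyosin mixture can be read without regard to library scaling. *Tpm1* made up 6.36%, 6.54% and 7.03% of *Tpm1* + *Tpm3* + *Tpm4* in CTRL and 9.08%, 9.26% and 8.71% in cKO libraries, a difference of 2.37 percentage points. *Tpm3* made up 80.9%, 78.7% and 79.0% in CTRL and 75.6%, 76.8% and 77.3% in cKO libraries, a difference of -2.97 points. Neither pair of groups overlapped, and each reached the smallest p the design allows (exact permutation test, two-sided, p = 0.1, 0.15 after adjustment over the 6 shares). The *Tpm4* share overlapped, at 13.8% ± 1.02 in CTRL and 14.4% ± 0.788 in cKO libraries (SD, n = 3 each; exact permutation test, two-sided, p = 0.4).

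**Figure D3:**
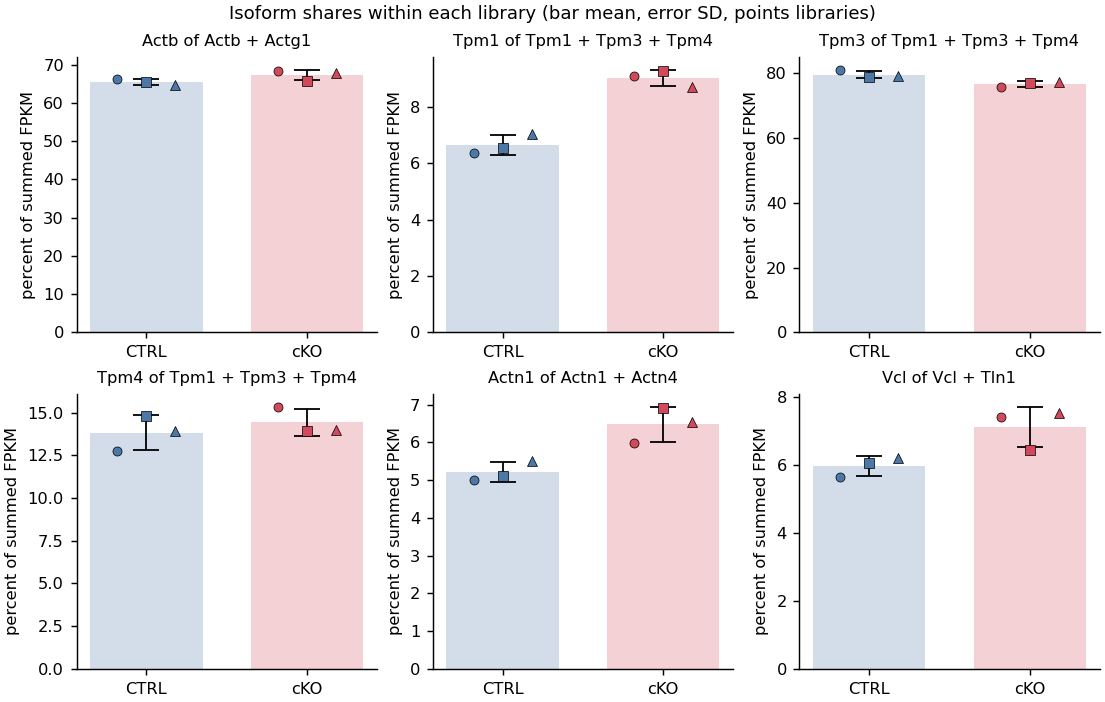
Share of one gene in the summed FPKM of its family or pair within each library (vertical axes, percent, from 0), for CTRL and cKO libraries; bars are means, error bars SD, points libraries. The shares of *Tpm1*, *Actn1* and *Vcl* are higher and that of *Tpm3* lower in all 3 cKO libraries, while those of *Actb* and *Tpm4* overlap.

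Of the crosslinkers, *Actn4*, the more abundant alpha-actinin of these cells (chr7:28893248-28962340, minus strand), fell, and it was the most evenly measured gene of the 10. Its values were 40.7, 40.5 and 41.0 FPKM in CTRL and 35.5, 35.6 and 35.8 FPKM in cKO libraries, with no overlap. The mean fell by 12.4%, from 40.7 ± 0.262 to 35.6 ± 0.184 FPKM (SD, n = 3 each), with a log2 fold change of -0.19 and a 95% interval from -0.25 to -0.13 (limma, adjusted p = 0.00156).

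*Actn1*, the second non-muscle alpha-actinin (chr12:80167547-80260371, minus strand), was at 2.14, 2.18 and 2.39 FPKM in CTRL and at 2.26, 2.65 and 2.51 FPKM in cKO libraries. The groups overlapped, and the log2 fold change was 0.098 with a 95% interval from -0.067 to 0.26 (limma, adjusted p = 0.302), on only 213 to 267 reads in a library. As a share of *Actn1* + *Actn4*, *Actn1* went from 5.22% ± 0.265 to 6.48% ± 0.465 (SD, n = 3 each) without overlap (exact permutation test, two-sided, p = 0.1, 0.15 after adjustment). The muscle forms *Actn2* and *Actn3* were below the filter.

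*Flna*, the gene of filamin A (chrX:74223461-74249820, minus strand), which joins filaments into networks and binds integrin tails, was at 32.3, 32.1 and 32.7 FPKM in CTRL and at 29.0, 30.7 and 30.8 FPKM in cKO libraries. All 3 cKO libraries lay below the lowest CTRL library, yet the difference missed the threshold. The mean was 32.4 ± 0.315 in CTRL and 30.2 ± 1.00 FPKM in cKO LSKs (SD, n = 3 each), with a log2 fold change of -0.098 and a 95% interval from -0.18 to -0.019 (limma, adjusted p = 0.0535). It passed in 4 of 20 alternatives, and with GC and length trends removed its log2 fold change was 0.013. The muscle filamin *Flnc* was below the filter.

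*Tln1*, the gene of talin-1 (chr4:43531519-43562691, minus strand), which activates integrins and couples them to actin, showed the largest fall of the 10. It was at 43.9, 43.4 and 40.9 FPKM in CTRL and at 36.7, 38.3 and 36.0 FPKM in cKO libraries, without overlap. The mean fell by 13.4%, from 42.7 ± 1.56 to 37.0 ± 1.16 FPKM (SD, n = 3 each), with a log2 fold change of -0.20 and a 95% interval from -0.29 to -0.11 (limma, adjusted p = 0.00679). Removing GC and length trends took it to -0.078 (adjusted p = 0.0904). *Tln1* has the highest GC content of the 10 (57.0%, against 45.9% for *Tpm4*, the lowest) and the longest gene model (9801 bases). The other talin gene, *Tln2*, was below the filter.

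*Vcl*, the gene of vinculin (chr14:20929398-21033676, plus strand), which binds talin and actin and strengthens the link under load, was at 2.62, 2.79 and 2.72 FPKM in CTRL and at 2.94, 2.64 and 2.93 FPKM in cKO libraries. The groups overlapped, with a log2 fold change of 0.047 and a 95% interval from -0.094 to 0.19 (limma, adjusted p = 0.564). *Vcl* overlaps the gene *Ap3m1* on the opposite strand by 2235 bases, so that 1995 of its 5168 transcript windows (38.6%) are shared. Since the counting is not stated to use strand, reads of the pair in this stretch cannot be told apart, and *Ap3m1* held 239% to 265% as many reads as *Vcl*. *Ap3m1* was at 8.16 ± 0.107 and 8.21 ± 0.0383 FPKM (SD, n = 3 each; limma, adjusted p = 0.884). *Vcl* as a share of *Vcl* + *Tln1* went from 5.97% ± 0.298 to 7.13% ± 0.588 (SD, n = 3 each) without overlap (exact permutation test, two-sided, p = 0.1, 0.15 after adjustment).

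Over the 10 genes, 1 was called higher and 4 lower at an adjusted p under 0.05, and 5 were not called. Of all 11552 genes tested, 19.9% were called higher and 20.6% lower. The genes of at least 20 FPKM numbered 6 among the 10, and 4 of these were lower, where 22.6% of all genes at that level were. All cKO libraries lay below all CTRL libraries for 5 of the 10 (28.5% of all genes) and above for 1 (25.5%). The study's rule asks for more than 2-fold with an unadjusted p under 0.05, and its scale and filter are not given in the sources used here. Here such a cut was applied to limma p-values and folds on log2(FPKM + 1) of the genes tested. None of the 10 passed it in this form, and 2.13% of all genes did. These counts were not tested against the shares, and the 10 genes were chosen with earlier results known.

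The changes were small and the replicates close. The median log2 fold change was -0.053 over the 10 genes and -0.0096 over all genes, and the median size of the change was 0.10 against 0.15. The median coefficient of variation was 3.03% in CTRL and 3.81% in cKO libraries, where it was 4.92% and 5.50% over all genes. The summed level of the 10 was 1323, 1326 and 1290 FPKM in CTRL and 1286, 1232 and 1267 FPKM in cKO libraries. The difference of the means was -3.90%, and -7.72% without *Actb*, which held 53.7% of the sum over the 6 libraries.

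With quantile normalization, rescaling to TPM or median-of-ratios scaling, all 4 falls were called. Scaling each library to the mean of 15 reference genes other than *Actb* left none of the 4 called (adjusted p from 0.315 to 0.717), while the same scaling without *Gapdh* left all 4. With *Gapdh*, the log2 fold changes were -0.071 for *Actg1*, -0.057 for *Tpm3*, -0.13 for *Actn4* and -0.15 for *Tln1*, with SE of 0.082 to 0.096 in place of 0.021 to 0.038. Including *Gapdh* moved the mean level of the reference genes in cKO replicate 2 from -0.011 to -0.16 on the log2 scale. With GC and length trends removed, *Actg1* (-0.14) and *Actn4* (-0.099, adjusted p = 0.0250) were called and *Tpm3* (-0.045) and *Tln1* (-0.078) were not.

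**Figure D4:**
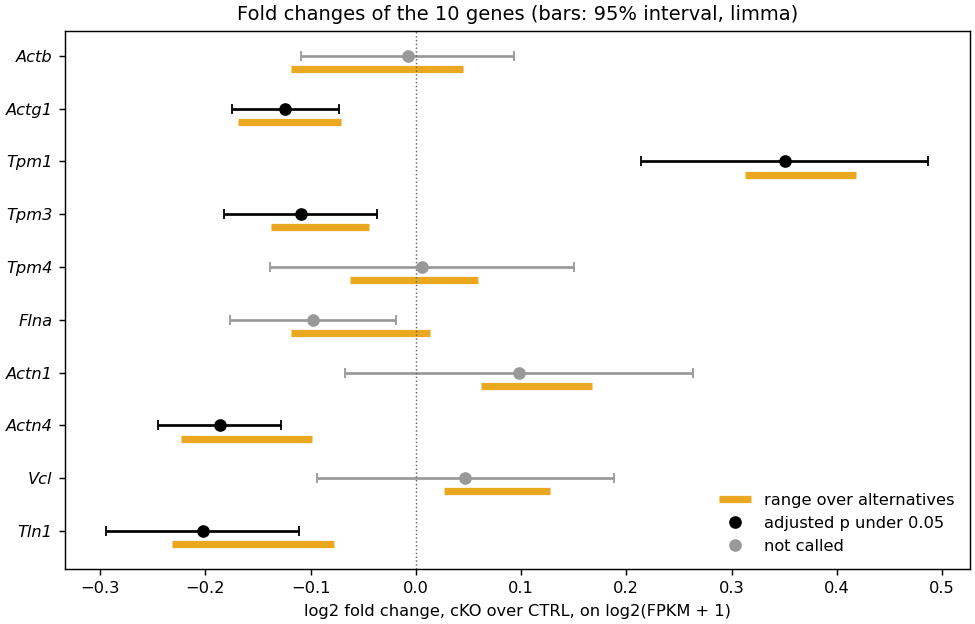
log2 fold change of each of the 10 genes, cKO over CTRL (horizontal axis, on log2(FPKM + 1)), with 95% intervals from limma; black points passed an adjusted p under 0.05 and gray ones did not, and orange bars span the alternatives tried. *Tpm1* at 0.35 stands to the right of 0 under every alternative, *Actg1*, *Tpm3*, *Actn4* and *Tln1* to the left, and the bars of *Actb*, *Tpm4* and *Flna* cross 0.

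Proteins that add, remove or recycle actin subunits changed in both directions. Of 31 genes of filament turnover, 26 were tested, 8 rose and 9 fell, with a median log2 fold change of -0.029, where 19.9% of all genes rose and 20.6% fell. Neither this count nor those of the lists that follow was tested against these shares. The risers included *Pfn1*, profilin-1, which loads actin for growth (502 ± 1.59 to 620 ± 11.4 FPKM, SD, n = 3 each, 0.30 on the log2 scale), the capping subunit *Capza1* (0.32) and twinfilin-1, *Twf1* (0.23). Among those that fell were coronin 1B, *Coro1b* (-0.29), the cyclase-associated protein *Cap1*, which recycles monomers (-0.23), and the cofilin kinase *Limk1* (-0.22). The call of *Limk1* was lost in 9 of 20 alternatives, and its log2 fold change was -0.11 with GC and length trends removed. Those of *Twf1*, *Coro1b* and *Cap1* were lost in 1 each, scaling to the other reference genes.

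Of the genes that start new filaments, 29 of 31 listed were tested, 5 rose and 10 fell (19.9% and 20.6% of all genes), with a median log2 fold change of -0.071, so that the number that rose was no larger a share than over all genes. *Cttn*, cortactin, which stabilises branches, rose by 0.68 from 3.12 ± 0.119 to 5.60 ± 0.233 FPKM (SD, n = 3 each). *Nckap1* of the WAVE complex rose by 0.50 and the nucleator *Spire1* by 0.48, the call of *Nckap1* being lost in 4 of 19 alternatives. The formin *Fmnl3* fell by 0.51, the WAVE subunit *Wasf2* by 0.44 and the Arp2/3 subunit *Arpc1b* by 0.28, the call of *Arpc1b* being lost in 1 of 20 alternatives.

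Other proteins that bundle filaments or tie them to the membrane had the lowest median of the actin lists, -0.17, with 3 higher and 10 lower of 19 tested (28 listed), beside 19.9% and 20.6% of all genes. *Lcp1*, the leukocyte bundler L-plastin, fell by 0.25, from 56.4 ± 0.189 to 47.3 ± 0.341 FPKM (SD, n = 3 each), *Swap70* by 0.36 and *Marcks*, a membrane-bound actin binder, by 0.50. *Cnn2*, a calponin, rose by 0.14, the *Marcks* relative *Marcksl1* by 0.12 and *Tagln2* by 0.096. These 3 calls were lost in 6, 11 and 8 of 20 alternatives, and *Tagln2* came to 0.029 with quantile normalization. The call of *Lcp1* was lost in 1 of 20. The partners of talin and vinculin in integrin adhesion had 3 higher and 10 lower of 25 tested (32 listed), with a median of -0.073, beside 19.9% and 20.6% of all genes. Leupaxin, *Lpxn*, fell by 0.53, *Evl*, which promotes filament growth at adhesions, by 0.53 and the scaffold *Git2* by 0.41. The LIM protein *Pdlim1* rose by 0.29, *Vasp*, a relative of *Evl*, by 0.16 and the blood-cell kindlin *Fermt3* by 0.11, the calls of *Vasp* and *Fermt3* being lost in 6 and 7 of 20 alternatives. Of 12 relatives of the 10 genes, 2 were tested: *Tpm2* rose, and *Ctnna1*, alpha-catenin, fell by 0.10 (16.8 ± 0.345 to 15.6 ± 0.355 FPKM, SD, n = 3 each; limma, adjusted p = 0.0472), a call lost in 14 of 20 alternatives, among them leaving out any single library and the replicate block.

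*Srf*, which controls actin genes together with the cofactor *Mkl1* (also called *Mrtfa*), was at 30.5, 34.8 and 32.3 FPKM in CTRL and at 30.1, 30.5 and 31.2 FPKM in cKO libraries. The groups overlapped, and the log2 fold change was -0.083 (limma, adjusted p = 0.227). *Mkl1* fell from 5.72 ± 0.144 to 4.39 ± 0.251 FPKM (SD, n = 3 each), by 0.32 on the log2 scale (limma, adjusted p = 0.00359), and *Mkl2* was below the filter. The call of *Mkl1* was lost in 1 of 20 alternatives, scaling to the other reference genes (adjusted p = 0.0762). Of 20 genes listed as *Srf*, its cofactors and further targets, 11 were tested: *Cfl1*, cofilin, rose by 0.092 (892 ± 14.1 to 951 ± 6.97 FPKM, SD, n = 3 each), *Mkl1* and *Elk3* fell (*Elk3* by 0.40), and 8 were not called, where 19.9% of all genes rose and 20.6% fell. The call of *Cfl1* was lost in 7 of 20 alternatives, and its log2 fold change was 0.0041 with quantile normalization (adjusted p = 0.886). Of the 2 genes with a CArG box in the promoter windows, *Actg1* fell and *Vcl* was not called.

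**Figure D5:**
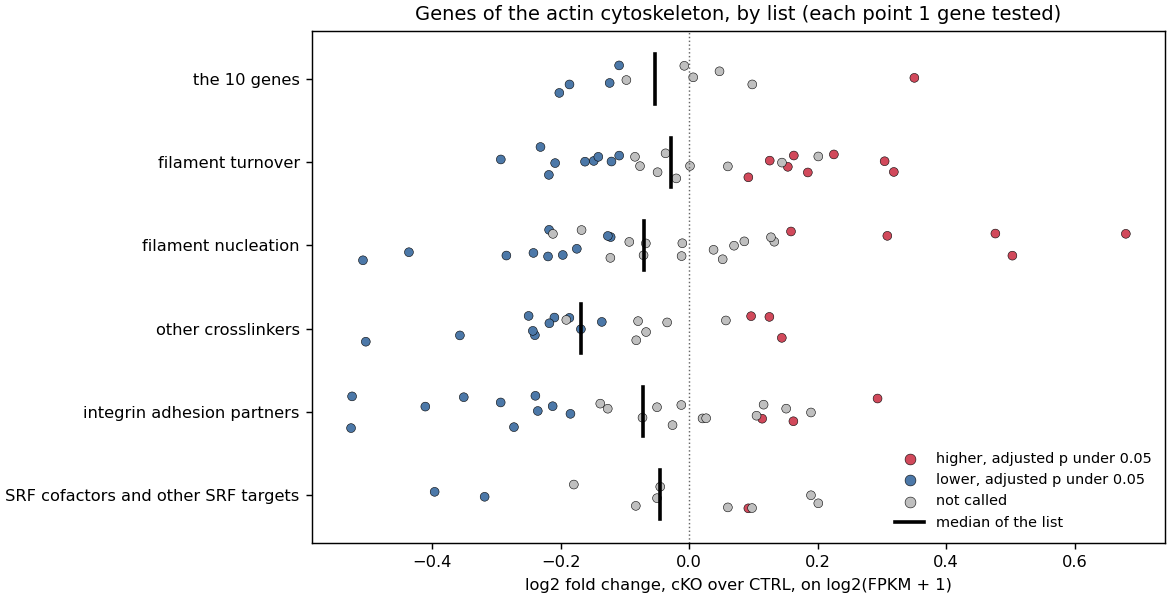
log2 fold changes, cKO over CTRL (horizontal axis, on log2(FPKM + 1)), of the genes tested in each list of actin cytoskeleton genes, 1 point a gene; red points rose, blue points fell and gray points were not called, and the black stroke is the median. Medians lie between -0.17 for other crosslinkers and -0.029 for filament turnover, and every list holds genes that moved each way.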

How the data were processed

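RNA-seq of LSK cells was re-analysed from the table the authors deposited, with 1 column of FPKM values for each of 6 libraries (3 control and 3 *Myh9*-deficient) over 54532 genes. The submitters' processing notes name HISAT2 2.0.5 and the genome mm10; the counting program, its strand setting and its treatment of reads that fit several genes are not given in the sources used here. Multiplied by gene length, 100% of the values came out as whole reads (tolerance 0.05 reads), and these gave the depth, 17571544 to 19894562 a library. FPKM is relative to the total of each library, so a change in a few abundant genes can shift the others.

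The 11552 genes that averaged 1 FPKM or more were tested on log2(FPKM + 1) with limma 3.58.1 (lmFit, eBayes with a trend; R 4.3.3), as a two-sided test with Benjamini-Hochberg adjustment across these genes; every adjusted p of a gene comes from this test. Fold changes on this scale understate those of low genes. Shares within a library were compared by exact permutation tests. The reference scaling used 15 genes. A few genes of the lists are not reported here. Scripts were tested on simulated data with 200 changed genes.

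The 10 genes and all lists were chosen with earlier results of these data known. Genes named were the 10, *Myh9*, *Srf* and its cofactors, the reference genes, the relatives of the 10, up to 3 genes each way with the largest called change in each list, and the 5 genes nearest to *Actb*; *Nkg7*, *Cd79a*, *Pdgfrb*, *Gp1bb*, *Cd3e*, *Cd3d*, *Cd4* and *Klrb1c* were named after their values were seen. Alternatives were other pseudocounts, filters, scalings and variance models, voom on recovered reads, removal of GC and length trends, a replicate block and leaving out each library. The 2-fold rule was a further call rule and is not among the 20 alternatives counted for a gene. Added after seeing the data were scaling without *Gapdh* and adding reads of near copies. Sequences came from GENCODE M21 and RefSeq. Software was Python 3.11.15 with pandas 2.3.3, numpy 2.4.6, scipy 1.17.1 and matplotlib 3.10.9.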

Additional observations from a re-analysis of the deposited data

How the results depend on the processing

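Of the 5 calls among the 10 genes, that of *Tpm1* was kept in 20 of 20 alternatives, those of *Actg1* and *Actn4* in 19, that of *Tln1* in 18 and that of *Tpm3* in 9. With the replicate block, all genes had 2063 higher and 2044 lower calls against 2295 and 2378 without it, and *Tpm3* had an adjusted p of 0.0666, so that 3 of the 10 were lower. Deviations from the group means correlated at -0.0046, -0.011 and -0.026 between same-numbered libraries, and no library correlated best with its own number. These values show no pairing by number but cannot exclude one, and whether the numbers pair the samples is not known. The block changed no other call of the 10. Scaling to the other reference genes left 1419 higher and 722 lower calls over all genes and 0 lower among the 10, and scaling without *Gapdh* gave 2224 and 2332 over all genes and 4 lower among the 10. With GC and length trends removed, 2 of the 10 were lower. Applied here to limma p-values and folds on log2(FPKM + 1) of the genes tested, the study's 2-fold rule called 165 genes higher and 81 lower. It called 0 higher and 0 lower of the 10. The study reports more genes in each direction under its rule, and its scale and filter are not given in the sources used here. Leaving out 1 library at a time left 3 to 4 of the 10 lower, the log2 fold change of *Actb* between -0.038 and 0.033 and that of *Tpm4* between -0.052 and 0.050. The sign of *Actb* also turned with scaling by the median of ratios (0.0047), voom (0.013) and the other reference genes (0.045), that of *Tpm4* with quantile normalization (-0.0057), rescaling to TPM (-0.014) and removal of GC and length trends (-0.063), and that of *Flna* with the last of these (0.013). Apart from the *Gapdh* value given above, the cause was not tested. *Actn1* and *Vcl* had only 213 to 451 reads in a library, and the part of depth in their results was not tested. Near copies of *Actg1* and *Tpm3* and the overlap of *Vcl* with *Ap3m1* limit those values. Residual effects of cell makeup on bulk values were not tested.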
